A study of Homo sapiens with 6 samples.

Results

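The SLC7 amino acid carriers and their heavy chain SLC3A2 were followed in the human line Ju77, which was grown from a malignant mesothelioma, as every array probe that the platform annotation assigns to SLC7A1, SLC7A2, SLC7A5, SLC7A6, SLC7A7, SLC7A8, SLC7A11 or SLC3A2. These are 13 of the 47225 probes and stand for 7 of the 8 genes, among 20044 genes named on the array, since no probe was listed under SLC7A7, which is not analysed here. The series compares 3 arrays of Ju77 cells labelled resistant to ADI-PEG20 with 3 arrays of parental Ju77 cells, all from total RNA taken the day after plating. The drug ADI-PEG20 is arginine deiminase joined to polyethylene glycol, takes arginine away from around cells and is aimed at tumours that make little argininosuccinate synthetase (ASS1). The labels give no dose, and do not say whether the resistant cells were in the drug when RNA was taken. They also name no separate cultures, and each group is a single line, so p-values cover only how far these samples scatter, possibly for technical reasons, and resistance and other ways in which both lines differ cannot be told apart.

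Carriers of the SLC7 family move amino acids across the plasma membrane in both directions or by exchange. SLC7A1 and SLC7A2 are the cationic amino acid transporters, which work alone and bring arginine, lysine and ornithine into the cell. SLC7A5, SLC7A6, SLC7A7, SLC7A8 and SLC7A11 are light chains that need SLC3A2, a glycoprotein also called 4F2hc or CD98 heavy chain, to reach the membrane, with which they form a disulfide-linked pair. Among them SLC7A5 exchanges large neutral amino acids such as leucine, SLC7A6 and SLC7A7 exchange cationic against neutral amino acids, SLC7A8 carries neutral amino acids, and SLC7A11 takes up cystine in exchange for glutamate.

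Between 19024 and 20113 probes were detected per array (detection p-value under 0.05), and the mean intensity per array was 415.3 to 453.8 on the resistant and 469.9 to 499.0 on the parental arrays. Of 10 mesothelial markers 6 were detected throughout the resistant and 7 throughout the parental group, among them CALB2, MSLN and WT1. No endothelial marker (PECAM1, VWF, CDH5) was detected on any array, and neither were the leukocyte markers PTPRC, CD3E, CD14 and ITGAM, nor the fibroblast markers DCN, LUM, PDGFRA and COL14A1. CD68, another listed leukocyte marker, was detected on all arrays of both groups, and the mesothelial markers KRT5 and ITLN1 on no array. The summed intensity of all 6 fibroblast markers was nevertheless 1546 to 1749 on the resistant and 833 to 903 on the parental arrays, a rise that rests on MFAP5 (log2 difference 3.06), since FBLN1, the other detected marker, went the other way (-0.50). The sum of the 10 mesothelial markers was 11003 to 13012 on the resistant and 13571 to 15973 on the parental arrays. The part of these shifts in the results below was not tested. NKX2-1, listed for lung epithelium, was detected on all arrays of both groups, while SFTPC and SCGB1A1 were not detected on any array.

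A probe was tested where all arrays of the parental group, of the resistant group or of both detected it, which holds for 17843 probes and 10672 genes, and a gene is represented by its brightest tested probe. Of the 13 member probes 9 were tested, and they cover all 7 genes with a probe. In the resistant cells 5 of the 7 genes were lower (SLC7A1, SLC7A2, SLC7A5, SLC7A11 and SLC3A2), SLC7A6 was higher and SLC7A8 did not pass the test. Among all tested genes 42.3% were called at a limma adjusted p under 0.05, 21.4% lower and 20.9% higher, and among all tested probes 38.8% were called, 20.2% lower and 18.6% higher, against 6 lower and 1 higher of the 9 member probes. In bulk RNA fewer cells that express a gene and less RNA per cell cannot be told apart. The median difference of the 7 genes was -0.91 on the log2 scale, beside a median of all tested genes of -0.0039. The 4 probes not tested, for SLC7A2 (ILMN_1711451 and ILMN_1685830) and SLC7A8 (ILMN_1695093 and ILMN_1747397), were not detected on any array and had intensities from 98.8 to 136.0, so the counts above do not cover them.

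**Figure D1:**
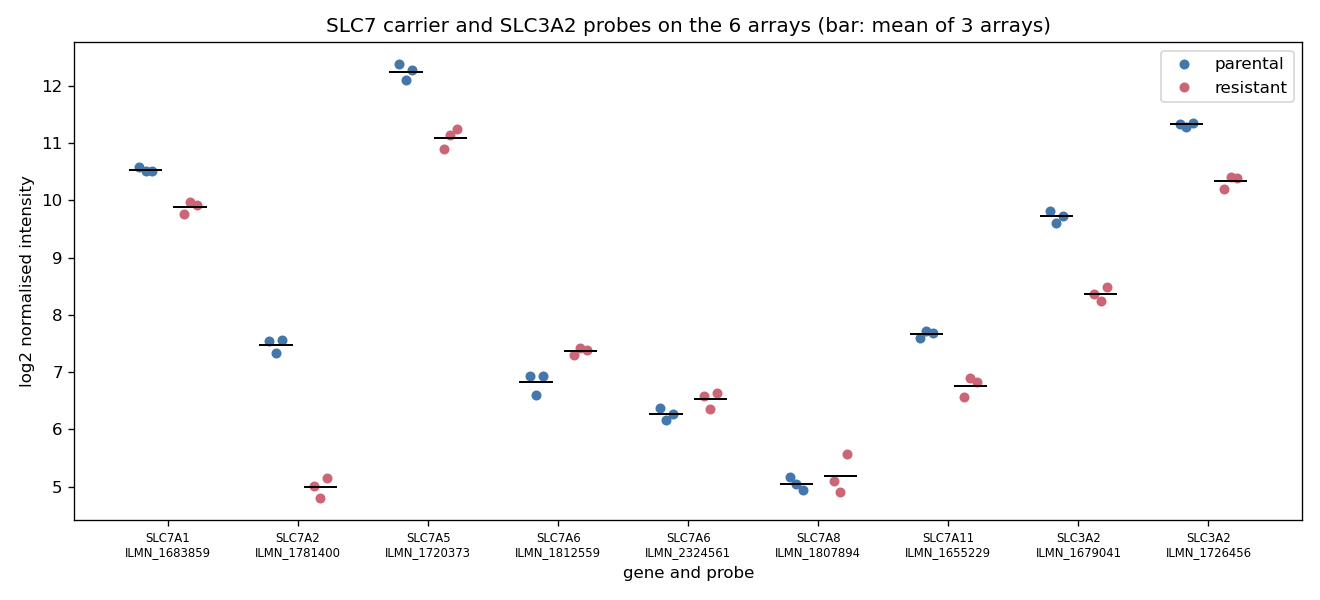
Log2 normalised intensity (vertical axis) of the 9 tested probes of the SLC7 carriers and SLC3A2 (horizontal axis) on each of the 3 parental and 3 resistant arrays, with a bar at the mean of each group. The groups do not overlap for SLC7A1, SLC7A2, SLC7A5, SLC7A11, both SLC3A2 probes and SLC7A6 ILMN_1812559, and overlap for SLC7A6 ILMN_2324561 and SLC7A8. The share of all tested probes without overlap was not counted. Groups also lacked overlap for some genes not past the threshold, such as CD44 and NEDD4L.

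The first question is how the carriers that bring arginine into the cell differ between the lines. SLC7A1, the main arginine carrier of most cells, gave intensities of 1746.6, 1611.0 and 1769.9 on the parental arrays. On the resistant arrays it gave 940.8, 950.9 and 986.5. All resistant arrays were below all parental arrays, and the spread within each group was small beside the gap. How many of all tested probes separate the groups in this way was not counted, here or for the members below. After background correction and quantile normalisation the log2 mean fell from 10.53 ± 0.039 to 9.89 ± 0.104 (SD, n = 3). The log2 difference was -0.65 (SE 0.09, 95% interval -0.85 to -0.44), a 1.56-fold fall, with a limma adjusted p of 0.00102. By absolute difference the probe ranked 2318 among the 17843 tested.

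After background correction SLC7A2, the second cationic carrier, had the largest difference of the members tested. Its probe ILMN_1781400 gave intensities of 300.3, 271.5 and 317.7 on the parental arrays and 134.6, 120.5 and 129.9 on the resistant arrays. All parental arrays detected the probe, whereas on the resistant side 2 of the 3 arrays did. The log2 difference was -2.49 (SE 0.12, 95% interval -2.76 to -2.22), a 5.63-fold fall with a limma adjusted p of 6.11e-06 that ranked 71 among all tested probes. Because the resistant intensities lie near background, the size depends on the correction, and without it the log2 difference was -1.08. It was then not the largest, since SLC7A5 gave -1.12 and SLC3A2 ILMN_1679041 gave -1.13. A second probe annotated to the same transcript, ILMN_1711451, and a probe for another transcript, ILMN_1685830, were not detected on any array and give no test, so the fall rests on 1 of 3 probes.

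SLC7A2 lies on chromosome 8, and most of the tested genes nearest to it in map order were lower as well. Of the 5 nearest tested genes on each side 7 of 10 were called lower and 0 higher, with a median log2 difference of -0.92. Of the 10 nearest on each side 15 of 20 were lower, with a median of -0.71. Among all tested genes 21.4% were lower and 20.9% higher. The nearest tested gene on one side, VPS37A, had a log2 difference of -1.18. That on the other side, PDGFRL, had one of -0.04 (limma adjusted p = 0.8). Both were named for their position after values were seen. After background correction SLC7A2 fell further than each of these 20 neighbours. Without it SLC7A2 gave -1.08, and the neighbours were not compared on those values. What the stretch contributes to the fall of SLC7A2 was not tested. The 10 nearest tested genes of SLC7A1, on chromosome 13, had a median of 0.09, with 1 lower and 3 higher.

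**Figure D2:**
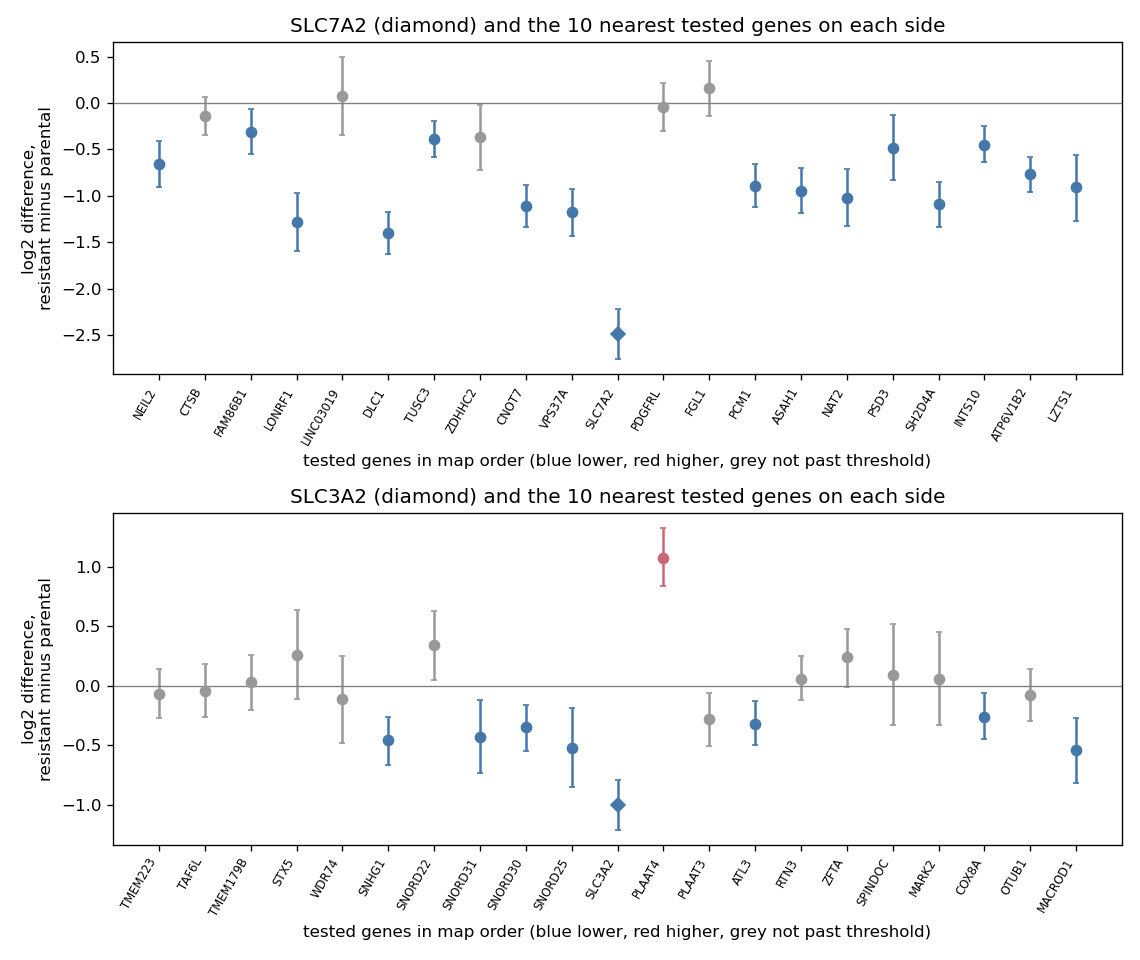
Log2 difference, resistant minus parental, with its 95% interval (vertical axis), of SLC7A2 and SLC3A2 (diamonds) and of the 10 nearest tested genes on each side, in map order (horizontal axis). Around SLC7A2 15 of 20 neighbours were lower and 0 higher, and around SLC3A2 7 were lower and 1 higher. Among all tested genes 21.4% were lower and 20.9% higher. Around SLC3A2 the host gene SNHG1 and the small nucleolar RNAs listed with it were counted separately.

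The heavy chain SLC3A2, which several of the other members need at the membrane, was lower on both of its probes. On ILMN_1726456, the brighter, the parental intensities were 2922.1, 2738.2 and 3100.4 and the resistant ones 1234.9, 1273.6 and 1336.6. On ILMN_1679041 they were 1082.4, 924.2 and 1079.0 against 418.3, 354.3 and 432.0. Neither probe showed any overlap between the groups. The log2 differences were -1.0 (SE 0.09, 2.0-fold, limma adjusted p = 1.60e-04) and -1.35 (SE 0.10, 2.56-fold, limma adjusted p = 6.17e-05). Both probes are annotated to the same transcript, and their changes differed by -0.36 (SE 0.11, 95% interval -0.67 to -0.04).

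SLC3A2 lies on chromosome 11 beside SNHG1, a host gene of small nucleolar RNAs. Its 5 tested neighbours on that side are SNHG1 and 4 small nucleolar RNAs listed with it. The counts here take these 5 as separate genes, although RNAs of a host gene come from its transcript. SNHG1, SNORD25, SNORD30 and SNORD31 are among the lower ones. Of the 10 nearest tested genes 5 were lower and 1 higher, beside 21.4% and 20.9% of all tested genes, with a median log2 difference of -0.30. Over the 20 nearest the median was -0.07, with 7 lower and 1 higher, and SLC3A2 fell further than each of them.

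SLC7A5, the leucine carrier that pairs with SLC3A2, was lower as well. Its parental intensities were 5682.9, 4681.2 and 5594.7, and its resistant intensities 1919.9, 2005.4 and 2265.3. Every resistant array was below every parental array. The log2 mean went from 12.25 ± 0.142 to 11.09 ± 0.181 (SD, n = 3), a difference of -1.16 (SE 0.12, 95% interval -1.44 to -0.88). This is a 2.23-fold fall, and limma gave an adjusted p of 3.06e-04. The neighbours of SLC7A5 on chromosome 16 did not share the fall, with 0 of 10 lower and 1 higher and a median of 0.11. Among all tested genes 21.4% were lower and 20.9% higher.

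SLC7A11, the cystine carrier, was lower too. It gave 307.1, 321.2 and 338.2 on the parental arrays and 195.3, 198.2 and 203.8 on the resistant arrays. The groups did not overlap, and every array detected the probe. The log2 difference was -0.91 (SE 0.11, 95% interval -1.16 to -0.66), a 1.88-fold fall with a limma adjusted p of 5.36e-04. As an intensity not far above background it moved with the correction, to -0.54 without it (limma adjusted p = 6.70e-06). On chromosome 4 its 10 nearest tested genes had a median of 0.15, with 2 lower and 2 higher, beside 21.4% and 20.9% of all tested genes.

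SLC7A6 exchanges cationic for neutral amino acids and is the only light chain for arginine among the members with a probe. It went the opposite way on 1 of its probes. ILMN_1812559 gave 232.2, 203.0 and 242.6 on the parental and 256.2, 244.3 and 253.6 on the resistant arrays, so the groups did not overlap but their closest arrays lay side by side. Its log2 mean rose from 6.82 ± 0.192 to 7.37 ± 0.067 (SD, n = 3), a difference of 0.55 (SE 0.11, 95% interval 0.29 to 0.81). This is 1.47-fold, and limma gave an adjusted p of 0.00653. Without background correction the difference was 0.32. The probe ILMN_2324561, annotated to the same transcript, gave 190.1, 176.8 and 191.9 against 197.7, 167.3 and 190.3, and its groups overlap. Its log2 difference was 0.26 (SE 0.11, 95% interval 0.01 to 0.51) with a limma adjusted p of 0.0895, so the rise of SLC7A6 rests on 1 of 2 probes. SLC7A6OS, a gene that lies beside SLC7A6, had a log2 difference of 0.00 (SE 0.13, limma adjusted p = 0.993). The nearest tested gene on the other side, PLA2G15, was higher by 0.70 (limma adjusted p = 0.00681). On chromosome 16 the 10 nearest tested genes of SLC7A6 had a median of 0.09, with 1 lower and 3 higher. Of all tested genes 21.4% were lower and 20.9% higher.

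SLC7A8, the neutral amino acid light chain, was close to the detection limit. Its only tested probe, ILMN_1807894, gave 139.1, 135.6 and 138.7 on the parental arrays, all detected, and 136.7, 122.7 and 141.0 on the resistant arrays, of which 2 were detected. The log2 difference was 0.14 (SE 0.17, 95% interval -0.25 to 0.52, limma adjusted p = 0.548), and the value without resistant replicate 3 was -0.05.

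**Figure D3:**
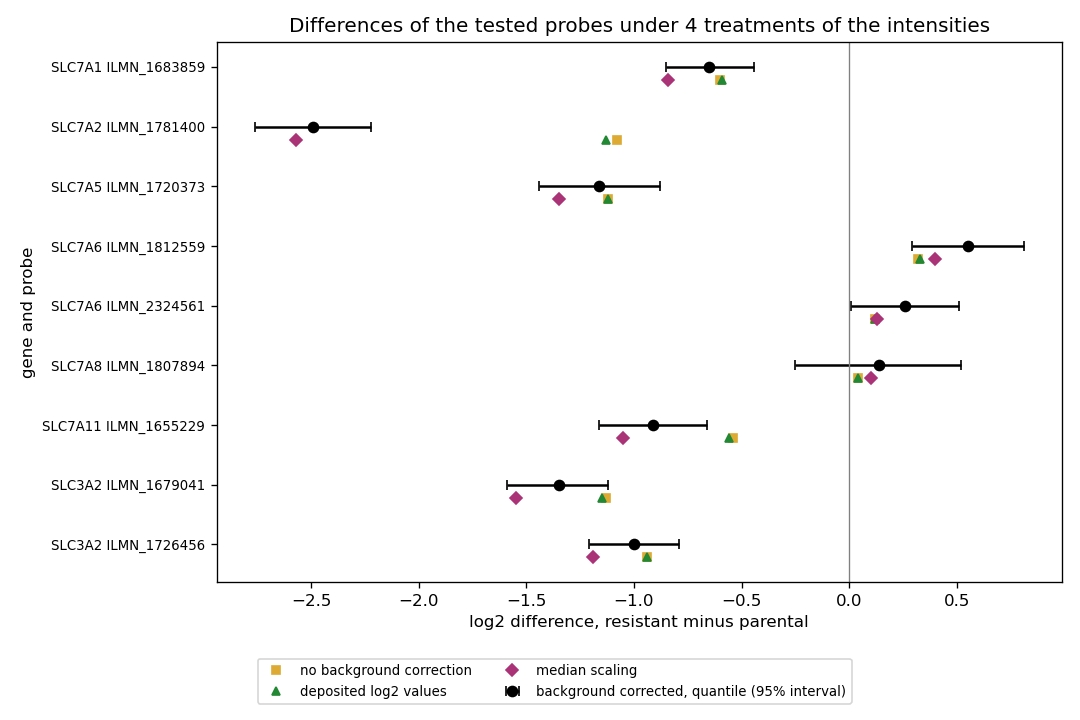
Log2 difference, resistant minus parental (horizontal axis), of each tested probe of the SLC7 carriers and SLC3A2 (vertical axis), with 95% intervals from limma for background-corrected, quantile-normalised values, beside the values without background correction, from the deposited log2 table and after median scaling. Every treatment gave SLC7A1, SLC7A2, SLC7A5, SLC7A11 and SLC3A2 below 0, and SLC7A2 moved most, from -2.57 (median scaling) to -1.08 (no background correction).

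The changes of 6 pairs of members were compared within each array, with the brighter SLC3A2 probe, and none passed the test, which 3 arrays against 3 cannot pass. In each array, the log2 value of SLC7A1 minus that of SLC3A2 was -0.76, -0.79 and -0.84 on the parental arrays and -0.42, -0.44 and -0.47 on the resistant arrays. The changes of SLC7A1 and SLC3A2 thus differed by 0.35 on the log2 scale (SE 0.03), with no overlap between the groups, which is about as much as the 2 SLC3A2 probes differed from each other. The change of SLC7A1 also differed from that of SLC7A5 by 0.51 (SE 0.09), without overlap. For SLC7A5 against SLC3A2 the changes differed by -0.16 (SE 0.08, 95% interval -0.39 to 0.08), and for SLC7A11 against SLC3A2 by 0.09 (SE 0.06, 95% interval -0.07 to 0.25), with overlapping groups in both cases. These values depend on the probe and the correction. Against SLC3A2 ILMN_1679041 the SLC7A5 difference was 0.20 (SE 0.11), of opposite sign, that of SLC7A11 was 0.44 (SE 0.16) and that of SLC7A1 was 0.71 (SE 0.11). Without background correction SLC7A11 against SLC3A2 was 0.40 (SE 0.04), and SLC7A11 against SLC7A5 went from 0.25 (SE 0.12) to 0.58 (SE 0.12). SLC7A6 against SLC3A2 differed by 1.55 (SE 0.10), without overlap. Over the 6 pairs compared, the exact two-sided permutation p was 0.10 for each pair without overlap, the smallest that 3 arrays against 3 allow, and 0.20 for each of the others, with adjusted p = 0.20 for all.

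The array values of SLC7A1, SLC7A11 and SLC3A2 were set against those of every other tested gene, as the root mean square distance between values centred on each gene's mean over the 6 arrays. Nearest to SLC7A1 were CWF19L1 (distance 0.020 on the log2 scale), ATF4 (0.030) and MRPL22 (0.031), with differences of -0.67, -0.65 and -0.65. For SLC7A11 the nearest were PBK, FAR2 and EIF3B, at distances of 0.058, 0.063 and 0.066. ADIRF, PALS2 and FAR2 were nearest to SLC3A2, at 0.041, 0.045 and 0.052. With 2 groups of arrays such a distance mostly ranks genes by a like difference between the groups.

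The promoters of the members that moved are shown because the transcription factors ATF4, which answers a shortage of amino acids, and NRF2, which answers oxidative stress, are known to act on several of these genes. Sequences are RefSeq's, build GRCh38.p14, from 250 bases before to 50 bases after a start site, and 6 of the 8 genes had at least 1 promoter in the table (13 promoters in all), with none for SLC7A2 or SLC7A11. Capitals mark matches to TGACNNNGC, the core of the antioxidant response element that NRF2 binds. The stretches before the start site are given on the gene's strand, and end at the last base before it.
SLC7A1, chr13:29595689-29595793, minus strand: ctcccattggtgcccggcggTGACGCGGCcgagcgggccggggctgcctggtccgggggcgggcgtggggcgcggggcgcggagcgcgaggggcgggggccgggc
SLC3A2, chr11:62881599-62881698, plus strand: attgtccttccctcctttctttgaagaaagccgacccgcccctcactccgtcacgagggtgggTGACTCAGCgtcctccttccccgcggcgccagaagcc
SLC7A6, chr16:68264309-68264525, plus strand: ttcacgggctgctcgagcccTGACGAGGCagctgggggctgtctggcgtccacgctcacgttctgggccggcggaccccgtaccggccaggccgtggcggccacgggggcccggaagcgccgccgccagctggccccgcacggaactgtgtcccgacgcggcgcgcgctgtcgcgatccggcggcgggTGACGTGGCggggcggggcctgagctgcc
SLC7A5, across its start site, chr16:87869491-87869519, minus strand: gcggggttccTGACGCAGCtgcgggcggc

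The core was thus found at SLC7A1, SLC3A2 and SLC7A5, which were lower, and at SLC7A6, whose brighter probe was higher. It was also found at SLC7A7, which has no probe here, in 1 of its promoters. Of all 35116 promoters listed, 13.3% held it on either strand, and so did at least 1 promoter of 4384 of 27305 genes, and none of the 4 SLC7A8 promoters did. Further motifs were searched on both strands. TGATGNAA, a form of the C/EBP-ATF response element through which ATF4 acts, was found in 3.62% of all promoters and, among the members, just after the start sites of SLC7A1 and SLC3A2, where the capitals below mark it.
SLC7A1, chr13:29595664-29595691, minus strand: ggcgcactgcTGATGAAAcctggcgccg
SLC3A2, chr11:62881726-62881748, plus strand: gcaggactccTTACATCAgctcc

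In SLC3A2 the match lies on the opposite strand, and it belongs to the same of its 3 listed promoters as the antioxidant core. CACGTG, the E-box that MYC binds, was found in 7.26% of all promoters. Among the measured members it was found at SLC7A5, from 130 to 125 bases before the start site, and in 1 of the SLC7A8 promoters. The 3 motifs share no bases in these promoters. A match describes letters in the window, and shows neither binding nor a cause.

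Other genes of the family gave no test. SLC7A3, SLC7A4, SLC7A9, SLC7A10, SLC7A13, SLC7A14 and SLC3A1, the heavy chain of SLC7A9, had 8 probes between them, with intensities from 99.6 to 131.5. Of these 1 probe, for SLC7A9, was detected on 1 resistant array, and the others on no array. SLC7A5P2, a pseudogene copy of SLC7A5, has 3 probes, of which ILMN_2234515 was tested and gave a log2 difference of -0.02 (SE 0.08, limma adjusted p = 0.822). The files hold no probe sequences, so whether the SLC7A5 probe also reads this copy was not tested.

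Amino acid carriers of other families were lower in part. Of 25 listed genes 20 were tested, 9 fell and 2 rose, and the list's median was -0.05 on the log2 scale, beside 21.4% of all tested genes lower and 20.9% higher. The genes that rose numbered 1 under median scaling (median -0.22), and also without parental 1 or without resistant 1. SLC6A15, which carries branched-chain amino acids and proline, fell by 1.65, with 2 of the 3 resistant arrays detecting it. SLC16A10, an aromatic amino acid carrier also detected on 2 resistant arrays, fell by 1.31, SLC6A9, a glycine carrier, by 1.21, and SLC1A5, the glutamine carrier that is often named beside SLC7A5, by 1.17 (SE 0.10, limma adjusted p = 1.31e-04).

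Known transcriptional regulators of the members went both ways, with 4 of 12 tested genes lower and 4 higher, and 6 and 2 under median scaling, beside 21.4% and 20.9% of all tested genes. Leaving out parental 1, parental 3 or resistant 1 left 2 higher. ATF4 itself, also among the nearest genes to SLC7A1, had intensities of 8844, 8481 and 8745 in the parental and 4948, 4847 and 5036 in the resistant cells, and fell by 0.65 (SE 0.08, limma adjusted p = 8.71e-04). Its partners CEBPB and CEBPG fell by 1.01 and 0.79, and DDIT3, a stress-induced relative, by 0.95. HIF1A, the hypoxia factor, rose by 0.70 (limma adjusted p = 0.00886), NFE2L2, which encodes NRF2, rose by 0.49 (limma adjusted p = 0.00318), and MYC gave 0.09 (limma adjusted p = 0.581).

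Of 16 tested genes of the ATF4 response other than carriers 14 fell (13 without parental 2 or parental 3) and 1 rose (0 without parental 1 or parental 2, 2 without resistant 1), and their median was -0.81 on the log2 scale, beside the -0.91 of the 7 members. TRIB3, a pseudokinase of this response, fell by 2.85 (SE 0.11, limma adjusted p = 3.19e-06), DDIT4, an mTORC1 inhibitor, by 1.40 and ASNS, asparagine synthetase, by 1.28. GDF15, a secreted stress protein that none of the resistant arrays detected, was at least 2.12-fold lower, as the parental mean over the lowest detected signal of each resistant array. The share of all tested genes called lower was 21.4%. Without background correction the median of these 16 genes was -0.68, and the middle value of the 7 members was -0.60, that of SLC7A1.

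**Figure D4:**
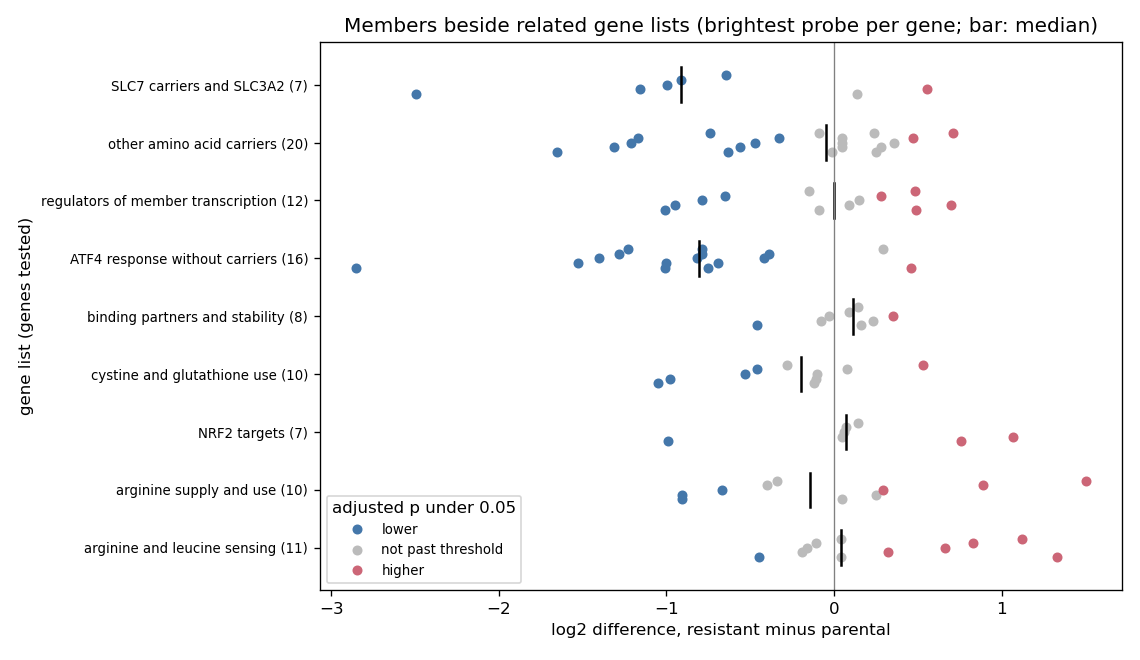
Log2 difference, resistant minus parental (horizontal axis), of each tested gene of the SLC7 carriers with SLC3A2 and of 8 related lists (vertical axis, number of tested genes in brackets), coloured by call, with a bar at the list's median. After background correction the medians of the SLC7 genes and of the ATF4 response are -0.91 and -0.81, and those of the other lists lie between -0.20 and 0.12.

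SLC7A11 supplies cystine for glutathione. Of 10 tested genes listed for cystine and glutathione use 4 fell and 1 rose (median -0.20), beside 21.4% and 20.9% of all tested genes. CBS, which does not use cystine but makes cystathionine from homocysteine on another way to cysteine, fell by 1.05, GSR, the glutathione reductase, by 0.98 and TXNRD1, the thioredoxin reductase, by 0.53, whereas GPX4, the lipid peroxide reductase that uses glutathione, rose by 0.53 (limma adjusted p = 0.00141). GSR lies on chromosome 8, as SLC7A2 does. The catalytic and modifier subunits of glutamate-cysteine ligase, GCLC and GCLM, gave -0.11 and -0.28 and did not pass the test. Of 7 tested NRF2 targets 1 fell (SRXN1, sulfiredoxin, by 0.99) and 2 rose (HMOX1, haem oxygenase, by 1.07, and AKR1B10, an aldo-keto reductase undetected in the parental cells, at least 1.27-fold).

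Of 8 tested genes whose proteins bind the members or set their stability 1 was lower and 1 higher, beside 42.3% of all tested genes called. ITGB1, the integrin chain that SLC3A2 binds, rose by 0.35 (limma adjusted p = 0.0205), and MUC1, a mucin, fell by 0.46 (limma adjusted p = 0.0375). The MUC1 call was lost with the replicate block and without parental 1, parental 3, resistant 1 or resistant 2, and the ITGB1 call without parental 3, resistant 2 or resistant 3. Without the detection filter 0 of these genes were lower and 0 higher. CD44, which steadies SLC7A11 at the membrane, gave 0.14, and LAPTM4B, which brings SLC7A5 and SLC3A2 to lysosomes, gave 0.23, neither past the threshold.

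Of 10 tested genes that supply and use arginine 3 were lower and 3 higher (median -0.14, or -0.04 with undetected genes at their bounds), beside 21.4% and 20.9% of all tested genes. Median scaling gave 5 lower and 2 higher, and a detection p under 0.01 gave 2 lower and 4 higher, with a median of 0.15. ASS1, which rebuilds arginine from citrulline, had intensities of 249, 234 and 282 in the parental and 572, 408 and 417 in the resistant cells, and rose by 1.5 (limma adjusted p = 2.32e-04), opposite in sign to both cationic carriers. DDAH2, which clears methylated arginines, rose by 0.89. ODC1, ornithine decarboxylase, and AGMAT, which acts on agmatine, each fell by 0.91.

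Among genes by which mTORC1 senses arginine and leucine, the cargo of SLC7A1 and SLC7A5, 5 of 11 tested were higher and 1 lower, and 4 and 4 under median scaling, beside 20.9% of all tested genes higher and 21.4% lower. Without parental 3 or resistant 2 the higher genes numbered 3. CASTOR1, the cytosolic arginine sensor that holds mTORC1 back, rose by 1.33 (SE 0.13, limma adjusted p = 2.52e-04), with intensities of 148, 147 and 157 in the parental and 237, 181 and 193 in the resistant cells. SESN1, a leucine-sensing relative of SESN2, rose by 1.12, SESN3, undetected in the parental cells, was at least 1.44-fold higher, and RRAGB, a Rag GTPase, rose by 0.66. SESN2 itself, listed with the ATF4 response instead, fell by 0.42 (limma adjusted p = 0.0179). The median of this list was 0.04, and -0.14 under median scaling.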

How the data were processed

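Per the labels' protocols, biotin-labelled cRNA of 6 samples was hybridised to Illumina arrays. The deposited table of intensity values gives a signal and a detection p-value per probe and array, per the file headers, with no normalisation named. In 3269 consecutive rows the intensity and detection columns were exchanged. There the value in the detection column was the natural log of the intensity, per the deposited log2 values (rank correlation 1.0 after restoring, against at most 0.9062 for base 2). No member probe lies in these rows. The deposited log2 values keep the intensities' rank order. The sources used here do not give their method.

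Intensities were corrected by normexp from detection p-values (offset 16), and neqc then quantile normalised them and took log2 (limma 3.58.1, R 4.3.3). A single lmFit and eBayes fit over all 17843 detected probes, without covariates, gave two-sided p-values, adjusted by Benjamini-Hochberg over these probes. Probes were named by GEO's platform annotation, with symbols brought up to date through the RefSeq genes of GRCh38.p14 (99.87% of named probes matched). The deposited files name no build. Coordinates are printed only for the promoter stretches, in GRCh38.p14. A gene without detection in 1 group has only a bound, the brighter mean over each dimmer array's lowest detected signal or the gene's own if higher. On simulated arrays (19626 probes tested) 9 of 64 changed probes were recovered at a 1.5-fold change, 43 of 65 at 2-fold and 52 of 64 at 4-fold. There 19433 of the tested probes were unchanged, whereas 38.8% of the real probes were called, so these shares need not hold for the real arrays. Members and lists were chosen with earlier results of these data known. Named genes are all members, their family, up to 4 called genes of largest change per list, and the 3 nearest to SLC7A1, SLC7A11 and SLC3A2. NFE2L2, MYC, GCLC, GCLM, CD44, LAPTM4B, SESN2 and the neighbours were named after their values were seen. Alternatives covered background correction, normalisation, offset, filter, probe choice, adjustment, variance model, weights, replicate block and leaving out each array.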

Additional observations from a re-analysis of the deposited data

How the results depend on the processing

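SLC7A1, SLC7A2, SLC7A5, SLC7A11, both SLC3A2 probes and SLC7A6 ILMN_1812559 kept their direction and their side of the threshold under all 18 or, for SLC3A2 ILMN_1679041, 17 alternatives run. Their log2 differences ranged from -0.84 to -0.59, -2.58 to -1.08, -1.35 to -1.05, -1.05 to -0.54, -1.55 to -1.13 (ILMN_1679041), -1.19 to -0.93 (ILMN_1726456) and 0.32 to 0.61. Leaving out 1 array at a time gave 5 members lower each time. Without resistant replicate 2 the second SLC7A6 probe passed the threshold at 0.35, with leave-one-out values from 0.20 to 0.35, which took the higher member probes from 1 to 2 (1 to 2 over all such settings). Without resistant replicate 3 the SLC7A8 difference turned to -0.05, with leave-one-out values from -0.05 to 0.29. With the dimmest tested probe of each gene 0 members were higher, as SLC7A6 ILMN_2324561 then stands for its gene. Median scaling, which moved the median of all genes to -0.152, gave 3539 genes lower and 1351 higher, against 2285 and 2229, and the share lower among called genes went from 50.6% to 72.4%. Without the detection filter 12 of the listed genes were higher, against 19, with 47225 probes tested. After the data were seen, the pair comparisons were repeated with SLC3A2 ILMN_1679041, where SLC7A5 against SLC3A2 turned from -0.16 to 0.20, and without background correction, where none changed sign. With 10 neighbours on each side the medians were -0.71 for SLC7A2, against -0.92, and -0.07 for SLC3A2, against -0.30. Replicate numbers did not pair the arrays (correlations of deviations -0.062, 0.015 and 0.062 for same numbers, and 0.121 for resistant 1 with parental 2). With the replicate block 2095 genes were lower and 2057 higher, 5 members were lower and 1 higher, and SLC7A6 ILMN_1812559 gave adjusted p = 0.0172 in limma. A block for the slide was not run, as no label or header names slides. SLC7A8 and the resistant SLC7A2 arrays lie near background, which limits what 3 arrays can show of them.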

Other observations

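The 3 probes annotated to the pseudogene SLC7A5P2 differ widely in brightness. ILMN_1671355 gave 120.5 to 144.4 and ILMN_1788665 gave 117.7 to 131.7 over the 6 arrays, near the detection limit. ILMN_2234515 gave 17474.2, 17751.4 and 19444.1 on the parental arrays and 17278.0, 16806.4 and 16504.2 on the resistant arrays, brighter than 99.8% of all probes. Its difference did not follow that of SLC7A5 (-0.02 against -1.16 on the log2 scale). What this probe reads was not tested.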
